A study of Mus musculus with 20 samples.

Results

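The 40 genes described here copy the genome in S phase, supply its nucleotides or start that phase. They were taken by symbol from a list of replication and S-phase genes. No measured value was in the rule, but the list was chosen with earlier results of these data known. All 40 were present among the 24848 genes of each deposited table, and all 40 passed the filter on low counts that left 14751 genes for testing. They comprise the licensing factors Cdc6 and Cdt1, the 6 subunits of the MCM helicase, 6 factors that activate it, and 9 subunits of the 3 replicative polymerases. They further comprise 7 genes of the sliding clamp, its loader and the lagging strand, 2 of the single-strand binding protein RPA, 4 of nucleotide synthesis, the methylation factor Uhrf1, and 3 regulators of the entry into S phase.

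The study sequenced RNA of mesenchymal cells from the liver of C57BL/6 mice in 20 libraries, 4 in each of 5 groups. PMSCs, portal mesenchymal stem cells, belong to the stroma of the portal tract, while HSCs, hepatic stellate cells, surround the sinusoids and store vitamin A. Each type was sequenced fresh, without culture, and as the myofibroblasts (MFs), contractile matrix-producing cells, that they gave rise to in culture. No group carried a transgene, a gene deletion or a drug treatment according to the labels. Portal myofibroblasts were taken at 3 days (PMSC-MFs-3d) and 7 days (PMSC-MFs-7d). Stellate myofibroblasts are dated 7 days by the sample titles (HSC-MFs-7d) and 3 days by the series description, so their time is uncertain and the titles were followed. Whether replicate libraries had different animals or cultures as their source is not in the labels, so p-values here reflect no more than the spread of these libraries, which may be technical.

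Before S phase, Cdc6 and Cdt1 load the MCM helicase on replication origins, and at its onset Mcm10, Cdc45 and the GINS complex switch the helicase on. Polymerase alpha with primase then lays down primers, and polymerases delta and epsilon extend them on the sliding clamp Pcna. Many of these genes are transcribed from promoters bound by E2F factors, which cyclin E and cyclin D kinases release from the retinoblastoma protein. In the liver, stellate cells and portal fibroblasts are quiescent in health and divide when they turn into myofibroblasts.

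Promoter sequence is shown for members whose changes are followed in the text, since E2F factors act through sites next to the start of these genes. The E2F letters searched were TTTCCCGC, TTTCGCGC, TTTGCCGC and TTTGGCGC. The cell-cycle homology region, known as CHR and found in genes of late cycle phases, was searched as TTTGAA and TTCGAA, and CCAAT, the letters bound by NF-Y, as CCAAT. Both strands were read. The RefSeq promoter table of the GRCm38.p6 assembly, from 250 bases before to 50 after each start, held 38 windows of 32 members and none for Mcm4, Gins1, Gins2, Gins4, Prim2, Pole, Rfc2 and Ccne2. Only the bases upstream of the outermost start annotated by RefSeq and GENCODE are printed, which leaves none of the windows of Cdc6 and E2f1. Each sequence runs 5′ to 3′ on the strand of its gene, with matches in capitals.
Mcm5, helicase subunit, chr8:75109259-75109467, plus strand: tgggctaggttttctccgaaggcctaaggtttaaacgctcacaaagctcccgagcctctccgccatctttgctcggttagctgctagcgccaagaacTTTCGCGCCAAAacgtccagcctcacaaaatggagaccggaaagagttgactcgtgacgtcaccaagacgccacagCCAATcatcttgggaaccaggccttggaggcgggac
Mcm6, helicase subunit, chr1:128359706-128359955, minus strand: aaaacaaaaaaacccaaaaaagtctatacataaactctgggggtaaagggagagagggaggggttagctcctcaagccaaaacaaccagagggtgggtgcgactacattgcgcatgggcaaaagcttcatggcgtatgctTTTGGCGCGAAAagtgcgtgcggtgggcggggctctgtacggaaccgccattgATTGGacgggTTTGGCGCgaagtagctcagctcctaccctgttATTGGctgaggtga
Ccne1, cyclin E, chr7:38107535-38107740, minus strand: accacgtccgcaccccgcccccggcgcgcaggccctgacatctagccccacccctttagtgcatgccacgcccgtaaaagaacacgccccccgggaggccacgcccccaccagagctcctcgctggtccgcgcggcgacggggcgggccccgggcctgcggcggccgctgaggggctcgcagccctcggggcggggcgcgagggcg
The stretch of Mcm5 holds 2 overlapping E2F matches, 1 on each strand, and that of Mcm6 holds 3. The stretch of Ccne1 holds no match to any of the letters. Mcm5 and Ccne1 were chosen by rule and Mcm6 was added after its matches were seen.

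An E2F match lay in 14 of the 38 windows of members (36.8%) and in 744 of all 32851 windows of the table (2.265%). Among the windows of protein-coding genes it lay in 607 of 21263 (2.855%). CCAAT was present in 52.6% of the windows of members, 37.4% of all windows and 38.2% of protein-coding ones. A CHR match was present in 18.4%, 19.2% and 17.6% in the same order. The members with an E2F match were Cdc6, Cdt1, Mcm3, Mcm5, Mcm6, Mcm7, Gins3, Pola1, Pole2, Pold1, Pold3, Rfc3, Lig1 and Uhrf1. A match is a description of letters and not a site of binding, and a window without one says nothing about the factor.

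Levels of a gene across libraries are given as CPM, counts relative to library sizes scaled by trimmed means of M-values, and levels compared between genes as deposited TPM, which are per length. Summed expected counts ranged from 11810532 in a PMSC library to 26675589 in a PMSC-MFs-7d library. The labelled cell types were checked against markers. Cd34, a marker of portal mesenchyme, had mean CPM values of 1267 (PMSCs) and 8.35 (HSCs), and Lrat, the stellate cell enzyme of retinoid storage, 161 (PMSCs) and 1568 (HSCs). The fresh groups varied most between libraries, with a biological coefficient of variation of 28.7% in PMSCs and 27.6% in HSCs against 7.84% to 19.6% in the cultured groups. The median member varied alike, by 24.6% and 17.1% in the fresh groups and by 6.65% to 7.19% in the cultured ones.

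Summed, the members were lower in the fresh cells of both kinds than in all cultures, though single members departed from this. Their summed TPM ranged over the 4 libraries from 539 to 614 in PMSCs, from 2439 to 2621 in PMSC-MFs-3d and from 1902 to 2059 in PMSC-MFs-7d. It ranged from 633 to 765 in HSCs and from 1555 to 1652 in HSC-MFs-7d, so that no 2 groups overlapped. By mean CPM, 37 of the 40 members were highest in PMSC-MFs-3d. The exceptions were Tk1 and E2f1, highest in PMSC-MFs-7d, and Pcna, highest in fresh PMSCs by CPM and in PMSC-MFs-3d by TPM. By mean TPM 34 members were highest in PMSC-MFs-3d, 5 in PMSC-MFs-7d (Tk1, E2f1, Gins2, Pole and Rrm1) and Ccne2 in HSC-MFs-7d. By CPM the lowest group was PMSCs for 23 members, HSCs for 14, HSC-MFs-7d for Pold2 and Pold3, and PMSC-MFs-7d for Pcna.

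**Figure D1:**
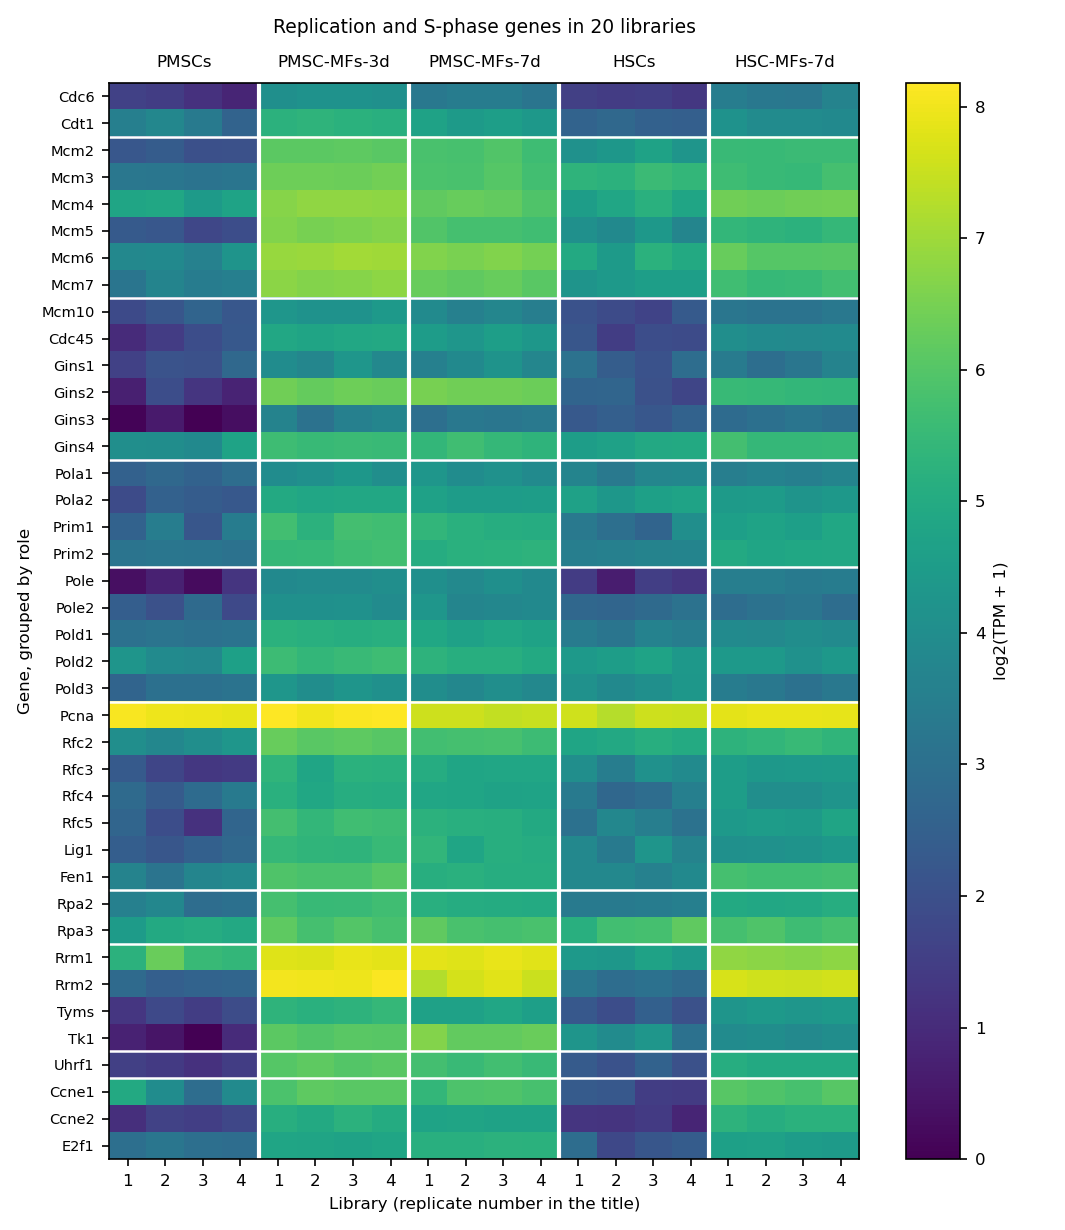
Level of each of the 40 members (rows, grouped by role, white lines between roles) in each of the 20 libraries (columns, by group and replicate number) as log2(TPM + 1). The columns of fresh PMSCs and HSCs are darker than those of the cultures for most rows, while the row of Pcna is bright in all 5 groups.

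From day 3 to day 7 of portal cell culture most replication genes fell moderately. Of the 40 members, 24 were lower at day 7 by edgeR's quasi-likelihood test with Benjamini-Hochberg adjustment over all tested genes (adjusted p under 0.05), none was higher and 16 were not called. Of all tested genes 17.4% were called lower and 18.6% higher in this comparison. The median log2 fold change was -0.49 for the members and 0.00 for all tested genes. The called falls ran from -0.38 to -0.97, so none reached 2-fold, a size that 4.27% of all tested genes passed downward and 6.57% upward. In 27 members every day 7 library lay below every day 3 library, as it did for 21.3% of tested genes, and in 1 member, E2f1, every day 7 library lay above, as for 20.5%. In these bulk libraries fewer cells in S phase and less replication RNA per cell cannot be told apart.

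Summed levels of 4 marker lists also differed between the days without overlap. From day 3 to day 7 the summed TPM of 5 cholangiocyte markers went from 98.2 to 142 down to 26.2 to 38.7, that of the macrophage and leukocyte list from 20.1 to 28.6 down to 5.96 to 9.58, and that of the endothelial list from 6.54 to 9.94 down to 3.28 to 4.39. The sum of 10 portal cell markers went from 224 to 260 up to 638 to 1275. That list split, with Ly6a, Eln and Thy1 called higher, Cd34 (-1.82) and Fbln1 (-0.88) called lower and 5 not called. Its median log2 fold change was -0.15, and 18.6% of all tested genes were called higher and 17.4% lower. The hepatocyte list overlapped, at 7.03 to 18.8 and 6.48 to 14.5. The defining markers were near 0 on both days, with mean CPM values of at most 0.037 for Epcam (cholangiocytes), 0.257 for Ptprc (leukocytes) and 0.380 for Alb (hepatocytes). Spp1, a cholangiocyte marker, averaged 65.1 CPM at day 3 and 5.91 at day 7, and Csf1r, of macrophages, 36.0 and 8.18. Of the 5 cholangiocyte markers Spp1 alone was called lower, while Krt19 was called higher (log2 fold change 1.24). The other 3 were not called, and the median over the 5 was 0.71. Called lower were 2 of the 11 tested macrophage and leukocyte markers and 3 of the 12 endothelial ones, with 9 not called in each list. The part of these markers in the fall was not tested.

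Both licensing factors fell, and Cdc6 (chr11:98907709-98923942 in GRCm38.p6) fell furthest of the members. Its CPM was 32.9, 34.0, 33.4 and 32.9 in the day 3 libraries and 15.6, 18.9, 18.03 and 15.6 in the day 7 libraries. The groups stand well apart and each is tight, and the log2 fold change was -0.97 ± 0.19, adjusted p = 0.000438. Cdt1, the partner of Cdc6 in loading the helicase, had CPM values of 35.3, 35.7, 32.4 and 32.7 and then 21.0, 18.4, 19.6 and 17.3, again without overlap, and a log2 fold change of -0.83 ± 0.19, adjusted p = 0.00171. At day 7 Cdc6 was 18.9, 15.96, 15.4 and 21.4 CPM in the stellate cultures, a range that includes the day 7 portal libraries.

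Of the MCM helicase 6 of 6 subunits fell, with a median log2 fold change of -0.63. Mcm5 had CPM values of 150.5, 134, 138 and 151 at day 3 and 84.0, 77.8, 73.2 and 72.4 at day 7, the largest fall of the complex at -0.90 ± 0.13, adjusted p = 2.99e-05. Mcm2 had 103, 101, 101 and 99.7 CPM at day 3 and 73.8, 76.5, 82.0 and 69.7 CPM at day 7, the smallest fall at -0.43 ± 0.10, adjusted p = 0.0031. In neither did the days overlap. Mcm3, Mcm4, Mcm6 and Mcm7 lay between them, with log2 fold changes of -0.63, -0.74, -0.52 and -0.63 and standard errors of 0.08 to 0.12. Over the 32 members in the promoter table, 10 of the 14 with an E2F match and 10 of the 18 without one were called lower, counts given without a test.

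Of the 6 genes that switch the loaded helicase on, 2 fell and the 4 subunits of the GINS complex were not called. Mcm10, which is needed to open the origin, had CPM values of 29.1, 26.0, 25.4 and 31.2 at day 3 and 19.4, 15.9, 17.4 and 15.1 at day 7 (log2 fold change -0.72 ± 0.17, adjusted p = 0.0028). Cdc45, which joins the MCM ring and GINS in the active helicase, had 26.8, 23.8, 25.2 and 27.2 CPM at day 3 and 17.7, 16.2, 19.0 and 16.4 CPM at day 7 (log2 fold change -0.57 ± 0.21, adjusted p = 0.0398). Leaving out any 1 of the 8 portal culture libraries ended the call of Cdc45, with adjusted p from 0.0553 to 0.0928. Gins2 had overlapping days, at 32.9, 28.8, 30.7 and 30.4 CPM on day 3 and 30.9, 31.0, 29.2 and 29.3 CPM on day 7, with a log2 fold change of -0.03 ± 0.21, adjusted p = 0.946. The other three GINS genes had log2 fold changes of -0.20 to -0.45, with overlapping libraries. Gins3 was called lower with the 2 portal culture groups fitted alone (adjusted p = 0.0395) and by DESeq2 (adjusted p = 0.0473). The fit of these 2 groups alone, also used below, calls more of all genes. It called 3345 lower and 3108 higher of 12874 tested genes, against 2566 and 2744 of 14751 over all groups.

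Among the polymerases the falls were uneven. Primase subunit Prim2 fell by 0.47 and polymerase alpha subunit Pola2 by 0.44 on the log2 scale, while the catalytic subunit Pola1 was not called at -0.13 ± 0.10, adjusted p = 0.361, nor was Prim1 at -0.52 ± 0.26, adjusted p = 0.124. With the 2 portal culture groups fitted alone Prim1 was called lower (adjusted p = 0.00263). The 3 polymerase delta subunits among the members fell, Pold1 from 56.5, 51.4, 48.8 and 52.7 to 38.0, 35.4, 38.2 and 36.4 CPM. Their log2 fold changes were -0.50 for Pold1, -0.53 for Pold2 and -0.38 for Pold3. Pole, the catalytic subunit of polymerase epsilon, was not called, with CPM values of 45.5, 46.5, 45.8 and 50.1 at day 3, 46.1, 41.1, 46.5 and 42.9 at day 7, and a log2 fold change of -0.09 ± 0.29, adjusted p = 0.854. Its partner Pole2 had -0.25 and was not called. The call of Pold3 was lost without day 3 replicate 1 or 3 or day 7 replicate 2 or 4, with adjusted p from 0.0502 to 0.0723.

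At the clamp and on the lagging strand 4 of 7 genes fell. Pcna, the sliding clamp, had CPM values of 145, 124, 133 and 142 at day 3 and 82.4, 86.9, 75.9 and 83.8 at day 7. Fen1, the nuclease that trims Okazaki fragments, had 58.2, 52.9, 52.1 and 63.4 at day 3 and 28.7, 32.3, 29.5 and 31.1 at day 7. Both pairs of groups stand apart, with log2 fold changes of -0.73 ± 0.08 for Pcna (adjusted p = 1.44e-06) and -0.90 ± 0.13 for Fen1 (adjusted p = 1.79e-05). The clamp loader subunit Rfc2 fell by 0.53, and Rfc3, Rfc4 and Rfc5 had log2 fold changes of -0.37, -0.40 and -0.60 and were not called over all groups. With the 2 portal culture groups alone all 3 were called lower (adjusted p = 0.0259, 0.00834 and 0.00021). Rfc5 was also called lower by library totals, relative log expression and DESeq2 (adjusted p from 0.0234 to 0.0427). Lig1, the ligase of Okazaki fragments, fell by 0.41 with an adjusted p of 0.0448 that was lost without any 1 of the 8 libraries other than day 7 replicate 1 (adjusted p from 0.0511 to 0.132). For RPA, which covers single strands, Rpa2 fell by 0.67 and Rpa3 was not called at -0.13.

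The nucleotide enzymes split. Rrm2, the regulated small subunit of ribonucleotide reductase, had CPM values of 246, 231, 225 and 258 at day 3 and 124, 177, 186 and 161 at day 7. Its large subunit Rrm1 had 396, 378, 410.1 and 413 at day 3 and 367, 367, 384 and 382 at day 7. Rrm2 fell, with a log2 fold change of -0.57 ± 0.11, adjusted p = 0.000615, and its day 7 libraries were spread more widely than those of day 3. Rrm1 was not called, at -0.09 ± 0.15, adjusted p = 0.691. Tyms, which makes thymidylate anew, fell from 66.5, 59.4, 61.7 and 72.6 CPM at day 3 to 37.6, 39.5, 42.3 and 37.7 CPM at day 7 (-0.73 ± 0.13, adjusted p = 0.00023). Tk1, which makes thymidylate from salvaged thymidine, had overlapping values of 38.2, 33.1, 35.3 and 35.2 CPM at day 3 and 48.7, 37.4, 35.9 and 40.3 CPM at day 7 and was not called (0.19 ± 0.22, adjusted p = 0.542). Uhrf1, which carries DNA methylation over to the new strand, fell by 0.55.

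The 3 regulators of S-phase entry did not move as one. Cyclin E gene Ccne2 fell from 45.7, 39.4, 47.9 and 42.2 to 30.3, 33.1, 30.2 and 31.4 CPM (log2 fold change -0.49 ± 0.14, adjusted p = 0.00887), without overlap. Its relative Ccne1 had 47.5, 56.4, 53.0 and 55.1 CPM at day 3 and 30.3, 45.5, 45.0 and 42.6 CPM at day 7. All 4 later libraries lay below the earlier ones, but Ccne1 was not called over all groups (log2 fold change -0.38 ± 0.29, adjusted p = 0.343), and it was called lower when the 2 portal culture groups were fitted alone (adjusted p = 0.0166). E2f1, an activating E2F factor, was 32.1, 30.6, 28.9 and 31.8 CPM at day 3 and 37.0, 38.9, 39.2 and 40.9 CPM at day 7. All 4 later libraries lay above all 4 earlier ones, yet the test over all groups did not call it, at 0.34 ± 0.17, adjusted p = 0.124. It was called when the 2 portal culture groups were fitted alone (0.32, adjusted p = 0.00233) and by limma on log2(TPM + 1) (0.43, adjusted p = 0.0359).

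**Figure D2:**
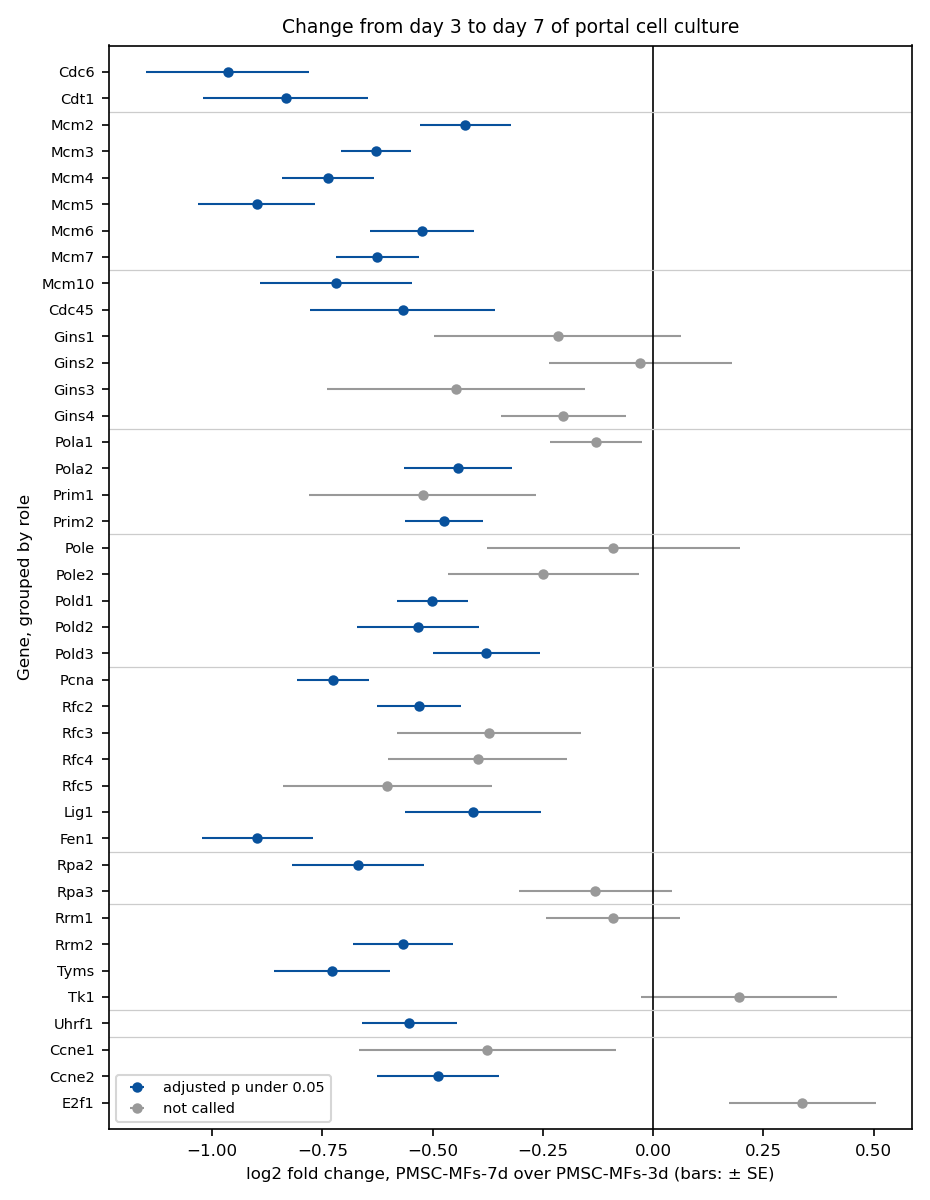
Log2 fold change of each member in PMSC-MFs-7d over PMSC-MFs-3d (points) with its standard error (bars), grouped by role, 4 libraries a group. The 24 members called lower (blue) lie between -0.38 and -0.97, and only Tk1 and E2f1, both not called (grey), lie right of 0.

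Genes outside the 40 were read from lists. Of 54 other replication genes 18 fell from day 3 to day 7, 2 rose and 34 were not called, with a median of -0.31, beside 17.4% lower and 18.6% higher over all tested genes. Among them Dctpp1, which clears modified nucleotides, had a log2 fold change of -1.26, Cdca7 -1.04, the helicase Recql4 -0.78, the polymerase delta subunit Pold4 -0.71 and the nuclease Exo1 -0.70. Of 32 mitosis genes 2 fell, the mitotic kinases Plk1 (-0.54) and Aurka (-0.52), none rose and 30 were not called, a share below that over all tested genes, with a median of -0.10. Of 10 checkpoint genes Hus1 fell (-0.60) and 9 were not called. The proliferation marker Mki67 averaged 222 CPM at day 3 and 262 CPM at day 7 and was not called (log2 fold change 0.24, adjusted p = 0.424).

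Of 31 genes that gate the entry into S phase, 11 rose and 5 fell, where over all tested genes 18.6% were higher and 17.4% lower. The 5 that fell are thus near the share over all genes. Ccnd1, cyclin D1, averaged 69.2 ± 1.84 CPM at day 3 and 487 ± 63.0 CPM at day 7 (SD, n = 4), and Cdk6, a kinase partner of D cyclins, 23.5 ± 3.22 and 69.9 ± 12.2. Cdkn2b, which encodes an inhibitor of these kinases, rose beside them from 5.14 ± 0.217 to 29.4 ± 6.86 CPM. Cdkn2a of the same list rose from 0.992 ± 0.0588 to 10.3 ± 0.368 CPM, and its transcripts were not counted apart. Myc, a growth-promoting transcription factor, averaged 106 ± 5.54 CPM at day 3 and 46.7 ± 10.1 CPM at day 7. The log2 fold changes were 2.81 for Ccnd1, 1.57 for Cdk6, 2.51 for Cdkn2b, 3.37 for Cdkn2a and -1.18 for Myc, each called. Ccnd2, cyclin D2, rose by 1.38 on the log2 scale, from 469 ± 46.4 to 1217 ± 153 CPM. Cdkn1a, the inhibitor p21, was called higher (log2 fold change 0.33, adjusted p = 0.0209) although its libraries overlapped.

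Limits of the day 3 to day 7 comparison are its small changes and the scaling. On log2(TPM + 1) the calls over all genes shifted from 2744 higher and 2566 lower to 3282 higher and 1818 lower, and the members' median moved to -0.38. By limma on that scale the calls of Cdc45, Lig1 and Pold3 were lost (adjusted p = 0.079, 0.149 and 0.116). On log2(TPM + 0.1) these were lost too, with those of Ccne2 and Pola2 (adjusted p = 0.131 and 0.0657). Without the low-count filter Lig1 was not called either (adjusted p = 0.0519).

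Nearly all members were higher in cultured than in fresh portal cells. Against fresh PMSCs, 39 of 40 members were higher in PMSC-MFs-3d and 1, Pcna, was lower (a direction that turned with the scaling), where 37.2% of all tested genes were called higher and 41.1% lower. The median log2 fold change was 2.27 for the members and -0.07 for all tested genes, and 37 members rose at least 2-fold, as 22.0% of tested genes did. By library totals without further scaling the median of all tested genes moved from -0.07 to 0.41, that of the members to 2.78, and the calls over all genes from 5482 higher and 6064 lower to 7246 and 4490. The 2 day groups are compared with the same fresh libraries, so their changes are not independent. Against the same fresh libraries PMSC-MFs-7d also had 39 members higher and 1 lower (38.1% and 39.0% of tested genes), with a median of 1.84. The call of Pold2 there was lost without fresh replicate 2 (adjusted p = 0.0543).

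The 5 largest rises were those of Tk1, Gins2, Rrm2, Gins3 and Uhrf1. Within the same roles Rrm1 (1.79), Gins1 (2.04) and Gins4 (1.04) lay below the members' median. Tk1 (chr11:117815519-117826087) had 0.532, 0.253, 0 and 0.639 CPM in fresh PMSCs, 23 counts in all, and 38.2, 33.1, 35.3 and 35.2 CPM at day 3, a log2 fold change of 6.47 ± 0.35, adjusted p = 1.41e-12. Rrm2 had 7.45, 5.49, 6.16 and 6.04 CPM in fresh PMSCs against the 225 to 258 CPM given above for day 3 (5.25 ± 0.14, adjusted p = 1.87e-16), and Uhrf1 3.86, 3.22, 2.51 and 3.31 against 102, 106, 94.9 and 104 at day 3 (4.96 ± 0.14, adjusted p = 2.16e-16). None of these pairs came near to overlapping. Gins2 rose by 5.45 from 0.333, 1.39, 0.731 and 0.349 CPM, and Gins3 by 5.20 from 0.0665, 0.695, 0 and 0.290 CPM. The size for the GINS genes rests on fresh replicate 2, the highest of its group. Without it the log2 fold changes were 6.08 for Gins2 and 6.16 for Gins3, and to day 7 they were 6.01 and 5.68. Pole in turn rested on fresh replicate 4, with 1.13, 2.84, 0.731 and 5.46 CPM in the fresh libraries, and moved from 4.12 to 4.82 without it, and to 4.73 for day 7.

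The MCM subunits were unequal in fresh portal cells and close to equal in culture. In TPM, fresh PMSCs had 25.6 ± 3.26 of Mcm4 and 14.1 ± 2.89 of Mcm6, but 3.49 ± 0.540 of Mcm2 and 3.22 ± 0.764 of Mcm5 (SD, n = 4). At day 3 the values were 109 ± 4.25, 126 ± 4.86, 68.8 ± 1.55 and 95.1 ± 4.51 in the same order. The highest subunit exceeded the lowest by 7.36 to 9.12 times in the fresh PMSC libraries, by 1.76 to 1.93 times at day 3 and by 1.70 to 1.86 times at day 7. In fresh HSCs this ratio was 2.40 to 3.45 and in HSC-MFs-7d 2.01 to 2.23, so that both cultured portal groups lie below all other libraries. The log2 rises to day 3 ranged accordingly from 1.71 ± 0.11 for Mcm4 to 4.49 ± 0.16 for Mcm5.

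**Figure D3:**
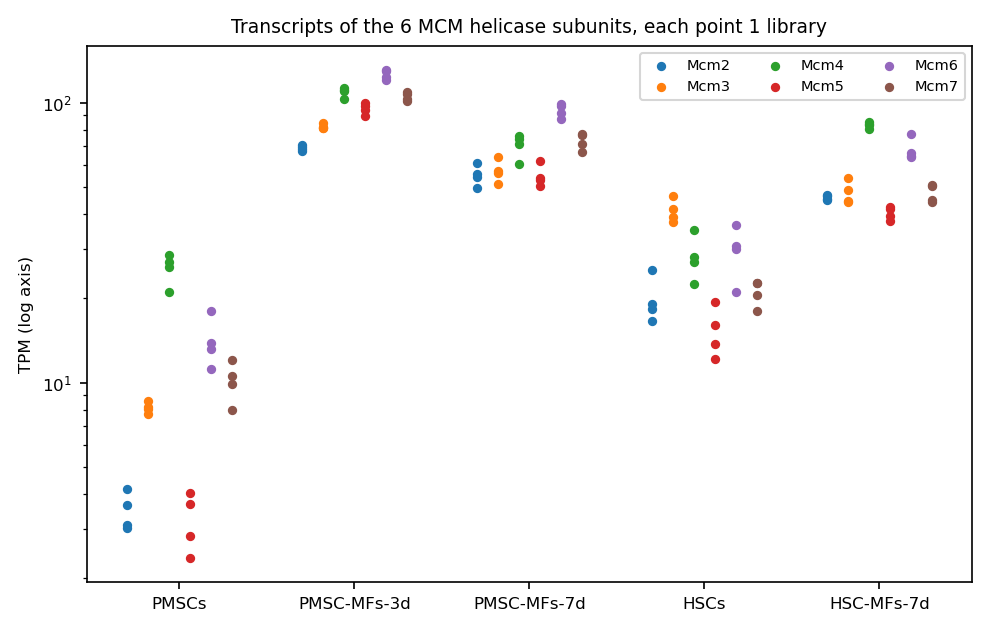
TPM of the 6 MCM subunits (colours) on a log axis in each library (points) of the 5 groups. The subunits span a wide range in fresh PMSCs, with Mcm4 at the top and Mcm2 and Mcm5 at the bottom, and a narrow one in the 2 portal culture groups.

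Pcna departed from the other members. Its CPM was 180.4, 159, 159 and 139 in fresh PMSCs, overlapping the 124 to 145 of day 3 and above the 75.9 to 86.9 of day 7. The log2 fold change from fresh PMSCs to day 3 was -0.23 ± 0.08, adjusted p = 0.0155, but its direction turned with the scaling, to 0.28 by library totals and to 0.15 by limma on TPM with either pseudocount, so no direction is given. The call was also lost without fresh replicate 1 or day 3 replicate 2 or 3, with adjusted p from 0.0693 to 0.111. From fresh PMSCs to day 7 it fell, by 0.95 on the log2 scale, and it stayed lower there under each scaling tried. In TPM Pcna was the most abundant member in fresh PMSCs, at 251 ± 17.8 (SD, n = 4), where the second, Rrm1, had 50.3 ± 18.4. The genome annotation names 2 pseudogenes after Pcna, with which reads could be shared.

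Ccne1 and E2f1 were also present in fresh portal cells. Ccne1 had 33.4, 15.5, 7.21 and 14.002 CPM there and 47.5, 56.4, 53.0 and 55.1 at day 3 (1.58 ± 0.30, adjusted p = 9.63e-05). Replicate 1 of the fresh libraries lay well above the others, as replicate 2 did for Rrm1, which had 89.3, 179, 105 and 89.9 CPM in fresh PMSCs against 378 to 413 at day 3. E2f1 had 10.8, 12.5, 10.7 and 9.30 CPM in fresh PMSCs and rose to day 3 by 1.51 on the log2 scale.

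**Figure D4:**
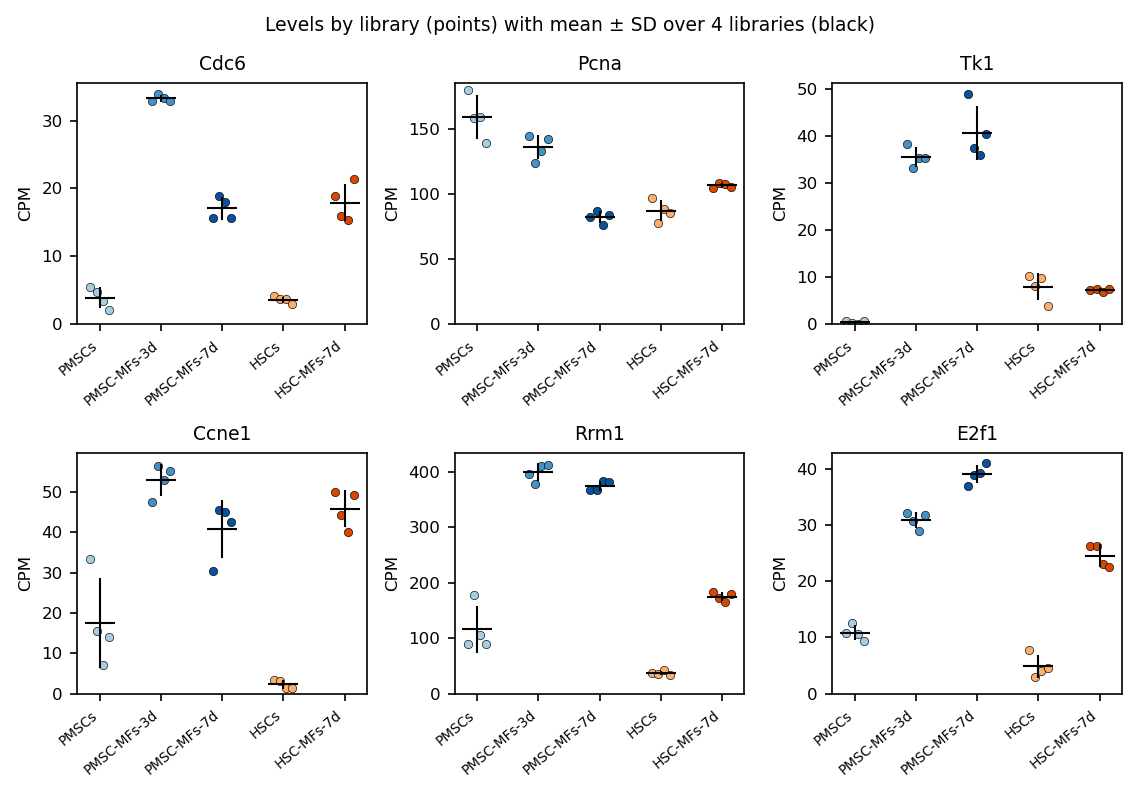
CPM of 6 members in each library (points) with the mean and SD over 4 libraries (black), on linear axes from 0. Cdc6 peaks in PMSC-MFs-3d, Pcna overlaps between fresh PMSCs and day 3 (the direction of its mean difference turns with the scaling), Tk1 is near 0 in fresh PMSCs and above 33 CPM in each portal culture library, and E2f1 is highest in PMSC-MFs-7d.

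Most members were also higher in cultured than in fresh stellate cells. Against fresh HSCs, 28 of 40 members were higher in HSC-MFs-7d, 2 were lower and 10 were not called, where 36.0% of tested genes were called higher and 38.5% lower. The median log2 fold change was 1.11 for the members and -0.03 for all tested genes. All 3 S-phase regulators and both licensing factors rose, with 5 of 6 MCM subunits, 3 of 4 nucleotide genes and 5 of 7 clamp and lagging-strand genes. Of the 9 polymerase subunits 4 rose, 2 fell and 3 were not called.

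Cyclin E carried the largest stellate changes together with Rrm2. Ccne2 had 1.87, 1.85, 2.09 and 0.980 CPM in fresh HSCs and 46.6, 39.8, 43.1 and 43.6 in HSC-MFs-7d (4.66 ± 0.18, adjusted p = 2.03e-14). Ccne1 had 3.44, 3.16, 1.43 and 1.31 CPM in fresh HSCs and 49.95, 44.3, 40.1 and 49.2 in HSC-MFs-7d (4.29 ± 0.37, adjusted p = 2.24e-09). Rrm2 had 7.97, 6.26, 6.44 and 5.42 CPM in fresh HSCs and 175, 163, 155 and 167 in HSC-MFs-7d (4.66 ± 0.14, adjusted p = 7.46e-16). In these 3 genes the groups stand far apart. Tk1 was at 10.1, 8.05, 9.74 and 3.79 CPM in fresh HSCs and 7.203, 7.50, 6.68 and 7.49 in the cultures and was not called (-0.14 ± 0.24, adjusted p = 0.618). The 2 members that fell were Pold3, from 22.3, 18.8, 19.8 and 23.7 to 11.8, 10.5, 8.65 and 10.5 CPM (-1.03 ± 0.13, adjusted p = 3.73e-07), and Pola2, from 26.3, 20.5, 23.9 and 25.8 to 20.1, 20.1, 16.7 and 18.7 CPM (-0.35 ± 0.12, adjusted p = 0.0159). The call of Pola2 was lost by library totals (adjusted p = 0.107) and on TPM, and without fresh HSC replicate 1 or 4 or HSC-MFs-7d replicate 3 (adjusted p from 0.0515 to 0.0732).

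The fresh HSC libraries carried transcripts of hepatocytes, endothelial cells and leukocytes at far higher levels than the cultures. The 12 hepatocyte markers summed to 5395 to 21807 TPM in HSCs and 74.6 to 129 in HSC-MFs-7d, and to 1172 to 2046 in PMSCs and 6.48 to 18.8 in the portal cultures. The 12 endothelial markers summed to 4910 to 6533 TPM in HSCs, 26.9 to 37.5 in HSC-MFs-7d, 40.5 to 125 in PMSCs and 3.28 to 9.94 in the portal cultures. The 12 macrophage and leukocyte markers, of which 11 were tested, summed to 2813 to 10089 TPM in HSCs and to at most 33.8 in any library of the other groups. The 5 cholangiocyte markers did not follow this, at 28.7 to 204 TPM in HSCs, 80.9 to 219 in HSC-MFs-7d and 27.9 to 59.3 in PMSCs. Ptprc, the pan-leukocyte gene, averaged 124 CPM in HSCs and under 1 CPM in each other group. The part of these cells in the levels of replication genes in fresh HSCs was not tested.

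The difference between the portal change to day 7 and the stellate change was tested directly. It was called for 31 of 40 members, 24 with the portal log2 change above the stellate one and 7 with it below, where 31.4% and 29.2% of all tested genes were called. The median difference was 0.86 for the members and 0.10 for all tested genes, and 0.44 for all tested genes by library totals. On that scaling the calls over all genes moved from 4633 above and 4310 below to 6242 and 3212. Tk1 differed most, by 6.80 ± 0.43, adjusted p = 1.08e-10, as it rose in portal cells and was not called in stellate cells. Gins3 (4.12), Rfc3 (2.62), Pola2 (2.45), Mcm2 (2.40) and Mcm5 (2.32) followed. Gins3 moved to 5.02 without fresh PMSC replicate 2, and Pole from 1.32 to 2.02 without fresh PMSC replicate 4. Those with the larger stellate change were Ccne1 (-3.09 ± 0.47, adjusted p = 1.16e-05), Ccne2 (-1.35), Fen1 (-0.82), Cdt1 (-0.69), Rrm1 (-0.53) and Mcm4 (-0.47), and Pcna, which fell in portal cells and rose in stellate cells (-1.24). The calls of Cdt1, Rrm1 and Mcm4 were lost by library totals (-0.34, -0.18 and -0.13, adjusted p from 0.282 to 0.436) and on TPM (adjusted p from 0.428 to 0.726). Those of Cdt1 and Rrm1 were also lost without the filter, with the 4 groups alone and without any 1 of 12 (Cdt1) or 10 (Rrm1) of the 16 libraries, with adjusted p from 0.0542 to 0.088 on leaving a library out. Those of Rrm1 and Rpa3 were lost with the replicate block (adjusted p = 0.0551 and 0.0519). The call of Rpa3 was also lost by relative log expression and DESeq2 (adjusted p = 0.0634 and 0.0506). It was lost too without PMSCs replicate 1 or 2, PMSC-MFs-7d replicate 1, HSCs replicate 4 or HSC-MFs-7d replicate 3 (adjusted p from 0.0625 to 0.0843). The time of the stellate cultures is uncertain, and time and cell type cannot be told apart if it was 3 days.

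**Figure D5:**
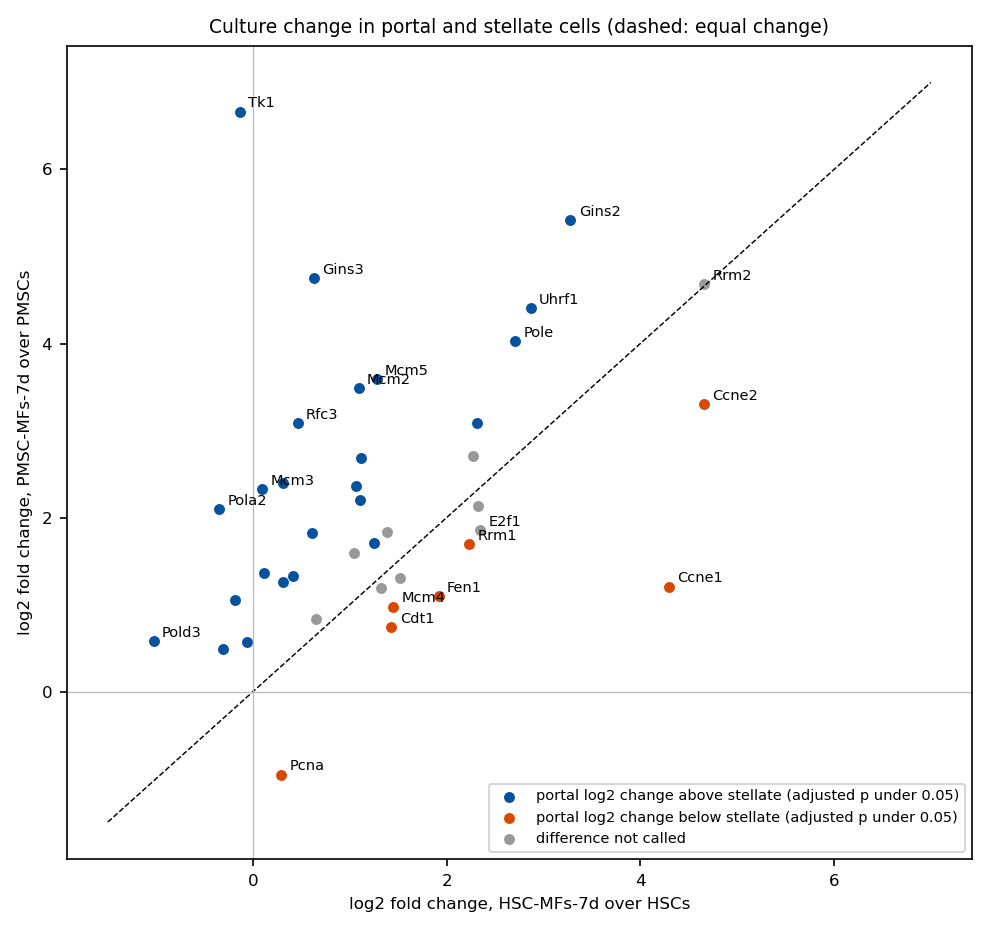
Log2 fold change of each member in PMSC-MFs-7d over PMSCs (vertical) against HSC-MFs-7d over HSCs (horizontal), points coloured by the test of the difference, dashed line at equal change. Most called members lie above the line, with Tk1 farthest from it at a difference of 6.80, and Ccne1, Ccne2 and Pcna are among those below.

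Between the fresh cells the share of members called was near or below that of all genes. Against HSCs, 8 members were higher in PMSCs and 18 lower, where 33.6% of tested genes were called higher and 40.1% lower, with a median of -0.31 for the members and -0.10 for all tested genes. At least 2-fold, 4 were higher and 9 lower, as were 21.4% and 22.4% of tested genes. By library totals the median of all tested genes was -0.44, and the calls over all genes moved from 4959 higher and 5913 lower to 3809 and 7619. Higher in PMSCs were all 3 S-phase regulators, with log2 fold changes of 2.92 for Ccne1, 1.16 for E2f1 and 0.88 for Ccne2, and Rrm1 (1.63), Cdt1 (1.28), Pcna (0.87), Mcm10 (0.70) and Mcm4. The direction of Mcm4 (0.25) turned with the scaling, to -0.09 by library totals and to -0.12 and -0.13 on TPM. The call of Mcm10 was lost by library totals (0.36, adjusted p = 0.111) and on TPM (0.24 and 0.30, adjusted p = 0.17 and 0.155). By library totals 6 members were higher and 25 lower. The other 5 MCM subunits were lower in PMSCs, Mcm2 at 7.25, 8.02, 5.95 and 5.58 CPM against 25.0, 29.4, 36.0 and 25.9 in HSCs (-2.11 ± 0.12, adjusted p = 5.06e-12) and Mcm3 at 15.2, 14.02, 13.5 and 12.9 against 52.6, 51.4, 59.1 and 52.5 (-1.96 ± 0.09, adjusted p = 1.64e-13). Tk1 (-4.32) and Gins3 (-3.89) differed most, and without fresh PMSC replicate 2 Gins3 stood at -4.82. Pole was not called at -0.73, but was called at -1.43 without fresh PMSC replicate 4. The other-cell transcripts of fresh HSCs stand beside each of these values, and their part was not tested.

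In culture the portal cells held more of most replication transcripts than the stellate cells. At the time titled 7 days, 24 members were higher in PMSC-MFs-7d than in HSC-MFs-7d, 3 were lower and 13 were not called, where 23.9% of tested genes were called higher and 23.1% lower. The median log2 fold change was 0.49 for the members and 0.00 for all tested genes. At least 2-fold, 3 were higher and 0 lower, as were 9.32% and 10.4% of tested genes. Tk1 led with 2.49 ± 0.24, adjusted p = 7.27e-08, from the values above of 35.9 to 48.7 CPM against 6.68 to 7.50 CPM, followed by Rrm1 (1.10 ± 0.15, adjusted p = 7.31e-06). Next stood the epsilon subunit Pole2 (1.01), Gins2 (0.99), Lig1 (0.97) and Pold1 (0.93). The 3 lower genes were Fen1, with 28.7, 32.3, 29.5 and 31.1 CPM in the portal and 47.2, 43.3, 44.1 and 45.3 CPM in the stellate cultures (-0.57 ± 0.13, adjusted p = 0.000974), Ccne2 (-0.47 ± 0.14, adjusted p = 0.00839) and Pcna (-0.37 ± 0.08, adjusted p = 0.0008). Ccne1, Cdc6 and Rrm2 were not called, with log2 fold changes of -0.17, -0.07 and -0.03 and standard errors of 0.11 to 0.29.

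Day 3 portal cultures stood further above the stellate cultures. Against the same HSC-MFs-7d libraries, 33 members were higher in PMSC-MFs-3d and none was lower, where 27.2% of tested genes were called higher and 27.4% lower, with a median of 0.90. At least 2-fold, 18 were higher, as were 9.90% of tested genes. The 7 not called over all groups were Gins3, Gins4, Pole, Rpa3, Ccne1, Ccne2 and E2f1, which include all 3 regulators of S-phase entry. With the 2 compared groups fitted alone Gins3, Pole, Ccne1 and E2f1 were called higher (adjusted p = 0.000808, 1.55e-07, 0.0235 and 0.00103). That fit called 4856 of 13002 tested genes higher, against 4013 of 14751 over all groups. By library totals Gins3 and Pole were called as well (adjusted p = 0.0399 and 0.0496). The call of Fen1 was lost by limma on log2(TPM + 1) and log2(TPM + 0.1) (adjusted p = 0.18 and 0.201). The largest log2 fold changes were those of Tk1 (2.29), Cdt1 (1.43), Pold1 (1.43), Lig1 (1.37) and Pold2 (1.37).

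Replication and mitosis genes stood in different proportion in the fresh and cultured cells. All 32 mitosis genes were higher in PMSC-MFs-3d than in fresh PMSCs, where 37.2% of all tested genes were called higher. Their median log2 fold change was 5.68, beside 2.27 for the replication members. In HSC-MFs-7d 30 of 32 were higher than in HSCs, where 36.0% of all tested genes were, with a median of 2.48 beside 1.11. The summed TPM of the 40 members over that of the 32 mitosis genes was 11.6 to 15.1 in fresh PMSC libraries, 3.76 to 4.66 in fresh HSCs and 1.66 to 1.85 in HSC-MFs-7d. It was 1.19 to 1.29 in PMSC-MFs-3d and 0.930 to 1.13 in PMSC-MFs-7d, and the 5 groups did not overlap. Pcna alone made up a large part of the fresh sums, on average 251 of 583 TPM in PMSCs and 179 of 706 in HSCs. In the cultures it was 278 of 2561 TPM in PMSC-MFs-3d, 181 of 1998 in PMSC-MFs-7d and 237 of 1608 in HSC-MFs-7d. The ratio was not taken without Pcna. Fresh PMSCs held 36.4 to 53.0 TPM of mitosis transcripts in all. Of the 54 other replication genes 47 rose and 5 fell from fresh PMSCs to day 3, where 41.1% of all tested genes were called lower. From HSCs to HSC-MFs-7d 39 of the 54 rose and 8 fell, where 38.5% of all tested genes were called lower.

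Of the 40 members 11 overlap another protein-coding gene in GRCm38.p6, namely Mcm7, Cdc45, Gins2, Pole2, Pold2, Rfc4, Lig1, Fen1, Tk1, Ccne2 and E2f1. The library kit keeps the strand, but no source used here says whether the counting did, so reads of these genes and their neighbours may be mixed. Tyms has a pseudogene named after it and its counts are uncertain in the same way.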

How the data were processed

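RNA of 20 libraries was extracted with an RNeasy Micro kit and made into KAPA Stranded mRNA-Seq libraries, per the labels' protocols. The authors deposited RSEM gene tables, whose expected counts and TPM values were used here; the deposited FPKM values were not used. FastQC, Trimmomatic, STAR 2.5.3a, RSEM 1.2.28 and the mm10 build are named in the submitters' processing notes, without their roles or order. Expected counts, summing to between 11810532 and 26675589 per library, were rounded to whole numbers. Genes were filtered with filterByExpr (14751 of 24848 kept) and library sizes scaled by TMM. Robust quasi-likelihood fits of edgeR 4.0.16 in R 4.3.3 had 1 mean per group over all 20 libraries, with Benjamini-Hochberg adjustment over all tested genes and a threshold of 0.05. The standard error is the absolute log2 fold change over the square root of F. Groups follow the sample titles.

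Comparisons were made between the 2 portal culture days, each culture and its fresh cells, the 2 fresh types and the cultured types, and the difference of the culture changes was tested by a contrast of 4 groups. Alternatives were no filter and a stricter one (at least 1 CPM in at least 4 libraries), library totals, relative log expression, DESeq2 1.42.0, only the compared groups, the replicate number as a block, limma 3.58.1 on log2(TPM + 1) and log2(TPM + 0.1), at least 2-fold change, and each library left out. No pair of libraries agreed within sampling noise (lowest chi-square per degree of freedom 3.36). The code was tested on simulated data. The members and lists were chosen with earlier results of these data known. Genes named are the members, from each other list those among the 6 largest absolute changes from day 3 to day 7, and a few listed by name (Mki67, Cdkn1a, Myc, Ccnd1 and defining cell markers). Promoters and positions are from RefSeq and GENCODE tables of GRCm38.p6, the assembly of mm10.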

Additional observations from a re-analysis of the deposited data

Results flagged for a closer look

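In 11 of 200 groups of 4 libraries 1 library stood apart, its gap to the nearest other, over the whole range, exceeding Dixon's 95% critical value, and chance marks about 1 in 20 groups. In HSCs these were Mcm3 at 59.1 CPM in replicate 3, Pola1 at 22.2 CPM in replicate 2 and Prim2 at 8.63 CPM in replicate 1. In HSC-MFs-7d these were Mcm6 at 93.3 CPM in replicate 1 and Gins4 at 26.2 CPM in replicate 1. In PMSC-MFs-7d this was Gins4 at 25.9 CPM in replicate 2. In PMSC-MFs-3d these were Prim1 at 22.6 CPM in replicate 2 and Rfc2 at 47.6 CPM in replicate 1. In PMSCs these were Prim2 at 7.55 CPM in replicate 4, Pold3 at 9.11 CPM in replicate 1 and Fen1 at 9.53 CPM in replicate 2. 

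The culture change to the groups titled 7 days differed between portal and stellate cells for 31 members by edgeR's quasi-likelihood test of the difference. The same test called 31.4% of all tested genes with the portal log2 change above the stellate one and 29.2% with it below. The culture change is compared on the log2 scale, with values as portal minus stellate. It was larger in portal cells for Tk1 (6.80), Gins3 (4.12), Rfc3 (2.62), Pola2 (2.45), Mcm2 (2.40), Mcm5 (2.32), Mcm3 (2.24), Gins2 (2.14), Lig1 (2.08), Pold3 (1.61), Rfc5 (1.58), Uhrf1 (1.54), Pole (1.32), Mcm7 (1.30), Pole2 (1.25), Pola1 (1.23), Gins1 (1.21), Mcm6 (1.10), Rfc2 (0.94), Pold1 (0.92), Pold2 (0.79), Tyms (0.77), Rpa3 (0.64) and Prim2 (0.46). It was larger in stellate cells, or opposite in sign, for Ccne1 (-3.09), Ccne2 (-1.35), Pcna (-1.24), Fen1 (-0.82), Cdt1 (-0.69), Rrm1 (-0.53) and Mcm4 (-0.47). Other-cell transcripts in fresh HSCs and the uncertain time of the stellate cultures touch each of these values, and their part was not tested. The calls of Cdt1, Rrm1 and Mcm4 were lost by library totals and on TPM (adjusted p from 0.282 to 0.726), and those of Rrm1 and Rpa3 with the replicate block (0.0551 and 0.0519). Those of Pole and Gins1 were lost without HSCs replicate 1 (0.0507 and 0.0503), and that of Rpa3 also by relative log expression and DESeq2 (0.0634 and 0.0506).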

How the results depend on the processing

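From day 3 to day 7 the members called lower numbered 24, where 2566 of 14751 tested genes were called lower. They numbered 21 to 23 with 1 library left out and 23 to 26 under the other count-based settings over all groups. With the compared groups alone they numbered 30, where 3345 of 12874 tested genes were called lower and 3108 higher. On log2(TPM + 1) and log2(TPM + 0.1) they numbered 21 and 19, where 1818 and 1803 of 14751 tested genes were called lower. At 2-fold or more they numbered 0. None was higher, but 1 was with the compared groups alone and on log2(TPM + 1). No called member changed sign there; of those not called, Gins2 (0.07), Pole (0.0082) and Rrm1 (0.0097) turned positive on TPM, and Gins2 also without day 3 replicate 1. Reversed values were those of Pcna, PMSC-MFs-3d against PMSCs (0.28 by library totals, 0.15 on TPM with either pseudocount), and, PMSCs against HSCs, Mcm4 (-0.093, -0.12 and -0.13 by totals, TPM + 1 and TPM + 0.1), Pold1 (-0.34, -0.33 and -0.37) and Pold2 (-0.35 and -0.36 on TPM). The 1 member lower in PMSC-MFs-3d than PMSCs became 0 at 2-fold, without the filter, by totals, with the compared groups alone and on TPM, and was 0 to 1 with a library left out. The 1 lower in PMSC-MFs-7d than PMSCs became 0 at 2-fold. The 2 lower in HSC-MFs-7d than HSCs became 1 at 2-fold, by totals and on TPM, and 1 to 3 with a library left out. At 2-fold, PMSCs against HSCs had 4 higher and 9 lower, PMSC-MFs-7d against HSC-MFs-7d 3 and 0, PMSC-MFs-3d against HSC-MFs-7d 18 higher, and the difference 3 lower (2945 of 14751 tested genes), where the count without a fold limit became 4 by totals and on TPM. The cause was not tested.

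With 1 library left out, members higher and lower ranged over 39 to 39 and 0 to 1 for PMSC-MFs-3d against PMSCs, 38 to 39 and 1 for PMSC-MFs-7d against PMSCs, 28 to 30 and 1 to 3 for HSC-MFs-7d against HSCs, 7 to 9 and 16 to 20 for PMSCs against HSCs, 20 to 23 and 3 for PMSC-MFs-7d against HSC-MFs-7d, 31 to 34 and 0 for PMSC-MFs-3d against HSC-MFs-7d, and 22 to 27 and 5 to 7 for the difference. The labels do not say whether replicate numbers pair the samples. Correlations of day 7 with day 3 do not settle it (0.12, 0.10, 0.00 and 0.09, with 3 of 4 numbers best matched to themselves). With the replicate block the same members were called for day 7 against day 3 (24), both portal cultures against PMSCs (40) and PMSC-MFs-3d against HSC-MFs-7d (33). PMSC-MFs-7d against HSC-MFs-7d lost Rfc5 and gained Rfc3 (27 called), HSC-MFs-7d against HSCs gained Rfc3 (31), PMSCs against HSCs lost Tyms (25) and the difference lost Rpa3 and Rrm1 (29). Counts near 0 limit the folds of Tk1 and Gins3 in fresh PMSCs.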
